A study of Homo sapiens with 12 samples.

Results

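The 477 sites described here are the places in the genome at which PAR-CLIP clusters of IGF2BP1, IGF2BP2, IGF2BP3, METTL1 and WDR4 all recurred. Same-strand clusters on chromosomes 1 to 22, X and Y that shared 1 nt or more were joined, and a joined (merged) site was kept where 2 or more libraries of each of the 5 proteins had a cluster. These sites are 477 of 43870 merged sites (1.09%) and hold 6289 of 96139 clusters (6.54%). They were thus selected on the presence of clusters, and their recurrence in the 12 libraries is a description and not a finding.

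All 12 libraries came from wild-type HepG2 cells, a human liver cancer cell line. The cells received 4-thiouridine, a photoreactive uridine analogue, were crosslinked with long-wave ultraviolet light, and their RNA was cut with RNase T1, which cleaves after G. IGF2BP1, IGF2BP2, METTL1 and WDR4 had 2 libraries each, and IGF2BP3 had 4, of which 2 carry the label bio2. The replicates of a protein are separate libraries, and nothing in the sources used here says that same-numbered libraries of different proteins shared a culture, so the p-values below measure only the spread between these libraries. Each library gave between 4157 and 15051 clusters, and the deposited values are intervals without read counts, so the depth behind a single cluster is unknown. No untreated or mock precipitation was analysed here, so no background level is given. Of 10 hepatocyte marker genes, 9 had a cluster in at least 1 library, and TTR had none. That bar is low, since APOA1 met it in 1 library alone. No share over all genes is given beside it, so the count is no check of cell identity. A cluster reports binding and not the level of the RNA.

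The 3 IGF2BPs bind mature mRNA through RRM and KH domains and govern its stability, localization and translation. They are abundant in the embryo and in many tumours, and their name comes from a known target, the mRNA of the growth factor IGF2. METTL1 and its partner WDR4 form the methyltransferase that places N7-methylguanosine in tRNA and in a part of mRNA, and the study compares them as writers with the IGF2BPs as readers of that mark.

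Because the rule asks for 2 libraries of each protein, each of the 477 sites had clusters in all 8 libraries of the other 4 proteins, and only the IGF2BP3 libraries could vary. A cluster was present in all 12 libraries at 186 sites, in 11 at 49 and in 10 at 242. At 232 sites (48.6%) the bio2 libraries had no cluster, and at 10 sites they were the only IGF2BP3 libraries that had one. The sites just outside the rule were those 1 library short of it, 321 in number. Of these, 152 lacked a METTL1 library, 82 a WDR4 library, 25 an IGF2BP2 library and 5 an IGF2BP1 library. The other 57 had a cluster in only 1 of the 4 IGF2BP3 libraries, so that number is not like the rest. Cluster number did not follow the order of the proteins other than IGF2BP3 throughout. IGF2BP1, lacking least often, had the most clusters per library (13870 and 15051). IGF2BP2, with 4157 and 6960, was lacking less often than WDR4, with 9200 and 8650, or METTL1, with 6076 and 8052. How far cluster number bears on the order was not tested. Overlap of the libraries within a site was close: 464 of the 477 sites had at least 1 nt covered by 2 libraries of each protein, and 453 had at least 1 nt covered by every library present. At 360 sites each library present gave a single cluster, and at 21 sites every library present gave the same start and the same end.

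The sequences below show single-copy mRNA sites at which the 12 libraries coincided best, 1 per gene, ranked by the share of the merged width that all 12 libraries covered. They are written 5′ to 3′ on the strand of the RNA with T for U, from build hg38, and show the middle of the stretch covered by most libraries, up to 30 nt. Capitals mark CATA, CATC or CATT, the 4 nt words spelled CAUA, CAUC or CAUU in RNA that IGF2BPs are known to favour.

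WNT5A, coding sequence, chr3:55474476-55474494, minus strand: actggctctggggcggctg

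DCAF16, 3′ UTR, chr4:17802952-17802981, minus strand: cacactcacttctcaccctccccaccccaa

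SERINC5, 3′ UTR, chr5:80139578-80139607, minus strand: tctctctctcttttcttctttctcaacaac

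S100A1, 3′ UTR, chr1:153631912-153631941, plus strand: ctcaccccacttatccctctcCATAacccc

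KHDRBS1, 3′ UTR, chr1:32042752-32042781, plus strand: cttcttctccccaccttattcCATTcttaa

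YIPF3, 3′ UTR, chr6:43511889-43511918, minus strand: cacctaccccttccttcctctttatctctc

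COPA, 3′ UTR, chr1:160289433-160289462, minus strand: acaccaactcttaatCATCtccCATTttcc

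NT5C3B, coding sequence, chr17:41828899-41828928, minus strand: cacactctacCATAacaaCATTcccctttt

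SAT1, coding sequence, chrX:23785690-23785714, plus strand: caatgaggtgtcgctgcagcagcat

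SSR3, coding sequence, chr3:156544369-156544398, minus strand: caaCATTttcCATCttctataacaacactc

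The list also named YWHAZ, an adaptor protein of the 14-3-3 family, whose site is not printed. In WNT5A (a secreted Wnt ligand), DCAF16 (a substrate receptor of a ubiquitin ligase), SERINC5 (a membrane protein that restricts retroviruses) and YWHAZ, every one of the 12 libraries covered the whole site, that is 19, 48, 49 and 47 nt. At the site in KHDRBS1, an RNA-binding protein of the STAR family, the libraries covered between 38 and 40 nt of 40 nt, and at that of COPA, a coat protein of Golgi vesicles, between 34 and 37 nt of 37 nt. The printed sequences of DCAF16, SERINC5 and YIPF3 hold none of the 3 words and no G, whereas those of COPA, NT5C3B and SSR3 hold 2 of the words each. Those of WNT5A and SAT1, both in coding sequence, are rich in G instead and hold none of the words. In all, 73 single-copy mRNA sites in 57 genes had clusters in all 12 libraries, and 50 of them held one of the 3 words within 41 nt.

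The shared sites were of several origins, told apart by how often their central 20 nt occur in the genome. The central 20 nt occurred once at 209 sites (43.8%), 2 to 10 times at 81 and more than 10 times at 72. A further 47 sites had central 20 nt that also occur in the mitochondrial genome, and 68 had central 20 nt of the ribosomal RNA precursor. The last 2 kinds are the ones shared most often among their own kind: 11.1% of all sites with mitochondrial sequence and 17.1% of those with ribosomal RNA sequence met the rule, against 0.838% of single-copy sites. Of the mitochondrial-sequence sites, 28 lay on chromosome 1 between 629142 and 634920, 17 of them in exons of nuclear copies of mitochondrial genes, such as MTCO1P12 with 5 sites, MTND2P28 with 3 (and 1 more of single-copy sequence) and MTATP6P1 with 3. Another 8 lay on the opposite strand in an intron, and 3 between genes. On chromosome 5, MTND4P12 held 3. Of the ribosomal sites, 64 lay on chromosome 21 between 8209486 and 8988092. Reads were allowed up to 10 places in the genome by the study's methods, so clusters at such sites cannot be told apart from clusters of their copies. Copies were counted as exact matches, whereas reads were mapped with up to 3 mismatches. A site called single copy can therefore still hold reads of a near copy.

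The origins differed in which IGF2BP3 libraries they drew on. At the sites of ribosomal RNA sequence all 4 IGF2BP3 libraries had a cluster in 69.1%, and only the 2 without the bio2 label in 5.88%. At the sites with over 10 copies the order turned, with 15.3% and 79.2%. The single-copy sites lay between, with 38.8% and 51.2%. The 2 bio2 libraries had clusters at 228 and 226 of the 477 sites, and the other IGF2BP3 libraries at 460 and 461. The bio2 libraries held 6000 and 5556 clusters and the other IGF2BP3 libraries 6123 and 6444, so the 2 pairs were of similar size.

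**Figure D1:**
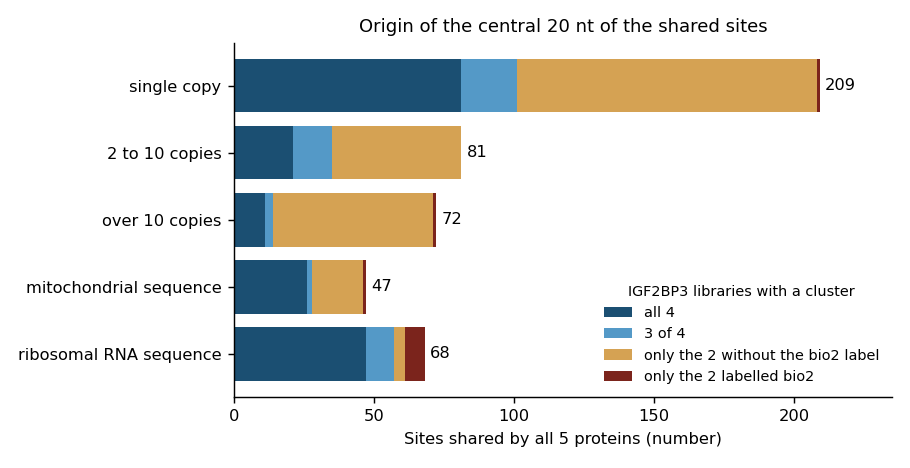
Number of sites shared by all 5 proteins (horizontal axis) for each origin of their central 20 nt (rows), with colours for the IGF2BP3 libraries that had a cluster. The 209 single-copy sites form the largest row, and the sites with over 10 copies are mostly those without a cluster in either bio2 library (79.2%).

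Shared sites lay mostly in 3′ UTRs. Of the 477 sites, 244 (51.2%, 95% Wilson interval 46.7 to 55.6, counting error only) had their core in a 3′ UTR, 45 in coding sequence, 13 in a 5′ UTR, 43 in another exon, 84 in an intron and 48 between genes. The core is the stretch covered by the most libraries. Of the 84 intronic sites, 50 were ribosomal RNA sequence inside an annotated host gene. Among the 209 single-copy sites the 3′ UTR share was 68.9% (62.3 to 74.8), coding sequence had 15.3% and introns 5.74%. The single-copy sites reproducible for at least 1 protein that did not meet the rule had 43.7% (42.7 to 44.7) in 3′ UTRs and 19.6% in introns. A closer match are the 300 single-copy sites reproducible for all 3 IGF2BPs that had no METTL1 or WDR4 cluster, of which 61.3% (55.7 to 66.7) lay in 3′ UTRs, an interval that overlaps that of the shared sites. Their share in coding sequence was 8.67% (5.98 to 12.4) and that of the shared sites 15.3% (11.1 to 20.8). Sites are not replicates of a condition, and these differences were not tested. With 1 site counted per gene, the 3′ UTR share of the shared sites was 48.6%, and at the 186 sites in all 12 libraries it was 39.8%.

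**Figure D2:**
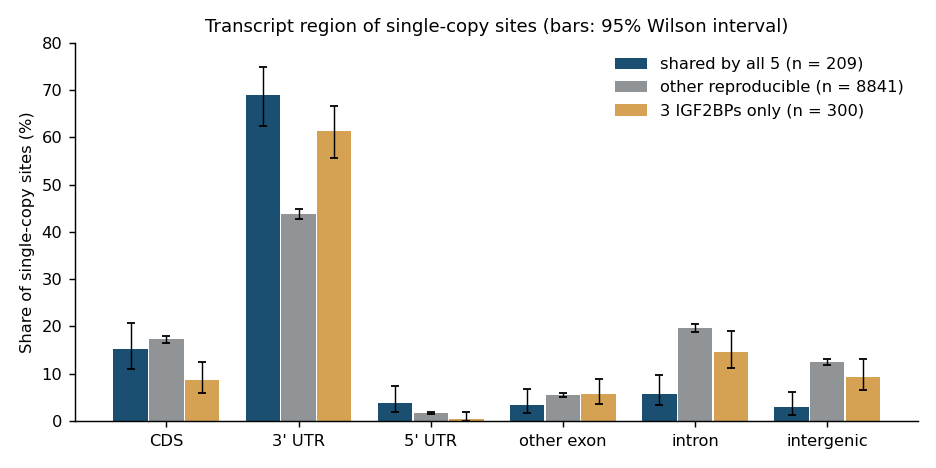
Share of single-copy sites (vertical axis, percent) in each transcript region for the 209 shared sites, 8841 other reproducible sites and 300 sites of the 3 IGF2BPs without METTL1 or WDR4. Lines are 95% Wilson intervals; 68.9% of the shared sites lay in 3′ UTRs against 43.7% and 61.3%.

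Within the 3′ UTR the single-copy shared sites lay a median of 622 nt from the stop codon, in 3′ UTRs with a median length of 2503 nt, which places them at 0.349 of the length. Other reproducible single-copy sites lay at a median of 1052 nt in 3′ UTRs of 3083 nt, at 0.409 of the length. The IGF2BP-only sites lay at 1355 nt of 3807 nt, at 0.415. The distributions overlapped widely, with an interquartile range of 0.172 to 0.637 of the length for the shared sites and 0.190 to 0.670 for the other reproducible ones.

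The METTL1 and WDR4 clusters at shared sites lay in 3′ UTRs more often than the other clusters of the same libraries. In the 4 METTL1 and WDR4 libraries, 43.5% to 45.8% of clusters at shared sites lay in a 3′ UTR, against 16.6% to 19.4% of the clusters elsewhere, a difference of 25.9 ± 2.26 percentage points (SD, n = 4 libraries). In the 8 IGF2BP libraries the difference was −0.0953 ± 4.43 points (SD, n = 8), and it ranged from −6.79 to 5.68 with 3 libraries above 0. No IGF2BP library reached the lowest METTL1 or WDR4 difference of 24.4 points. At shared sites the IGF2BP libraries had 31.9% to 48.97% of their clusters in 3′ UTRs, and elsewhere 38.4% to 47.6%. The shared sites are largely the same places for all libraries, whereas the clusters elsewhere are not. The difference thus restates where each library had its other clusters, and it carries no test.

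Shared sites were also C-rich. In a window of 41 nt centred on the core, the 144 single-copy 3′ UTR sites had on average 39.2% C and 18.8% A, other reproducible single-copy 3′ UTR sites 32.3% C and 24.8% A, and the IGF2BP-only sites 34.6% C and 28.1% A. T differed little, with 31.5%, 31.9% and 30.7%. Of the 144 shared sites, 15 lay in the 3′ UTR of IGF2, and the intervals below take all sites as separate. The word CCCC was present in 48.6% (40.6 to 56.7) of the shared windows, 26.9% (25.5 to 28.3) of the other reproducible ones, 31.5% (25.2 to 38.6) of the IGF2BP-only ones and 26.7% of all other single-copy 3′ UTR sites together. The overlapping words TCCC, CCCT and CTCC were likewise present in 61.8%, 57.6% and 63.2% of the shared windows and in 40.6%, 37.2% and 43.2% of the other reproducible ones. ATCA was present in 6.94% against 20.6%, and AAAC in 14.6% against 27.2%. Windows without any G made up 36.1% of the shared sites, 11.4% of the other reproducible sites and 22.3% of the IGF2BP-only sites.

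Shared cores were wider, with a median of 38 nt against 31 nt, so a window of 41 nt reached further past the narrower cores, which begin behind a G. In the central 21 nt, CCCC was present in 34.7% (27.4 to 42.8) of the shared sites, 17.6% of the other reproducible sites and 22.3% of the IGF2BP-only sites, the same order. The word was picked at these same sites, so this is no separate check. For the absence of G the order turned, with 60.4% of the shared sites, 69.9% of the others and 80.98% of the IGF2BP-only sites free of G in the central 21 nt. A G stood just before the core at 84.7% of the single-copy shared 3′ UTR sites and 89.1% of the other reproducible ones. RNase T1 cuts after G, and its part in these shares was not tested.

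The words CATA, CATC or CATT were about as frequent at shared sites as at all other sites, and less frequent than at the other reproducible ones, without a test. At least 1 of them was present in 44.7% (40.3 to 49.1) of the 477 windows, against 42.8% of all other and 55.3% of the other reproducible windows. In single-copy 3′ UTR windows the share was 54.9% (46.7 to 62.8) for the shared sites, against 61.5% (59.96 to 63.0) of the other reproducible, 64.1% (57.0 to 70.7) of the IGF2BP-only and 54.6% of all others. The intervals of the shared and the IGF2BP-only 3′ UTR sites overlap. The longer arrangement in which GGCA or CGGC stands ahead of CA was found within 81 nt in 14.6% of the single-copy shared 3′ UTR sites and 12.7% of the other reproducible ones. GGAC, a word of the m6A consensus, was present in 13 of 144 windows (9.03%, 5.35 to 14.8) against 5.85%, and AGGT in 2.78% against 4.74%. CTACCTC, which pairs with the let-7 seed, was present in 1.39% and 1.24%. All words were searched on the strand of the cluster alone, and a match is no proof of a bound site.

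**Figure D3:**
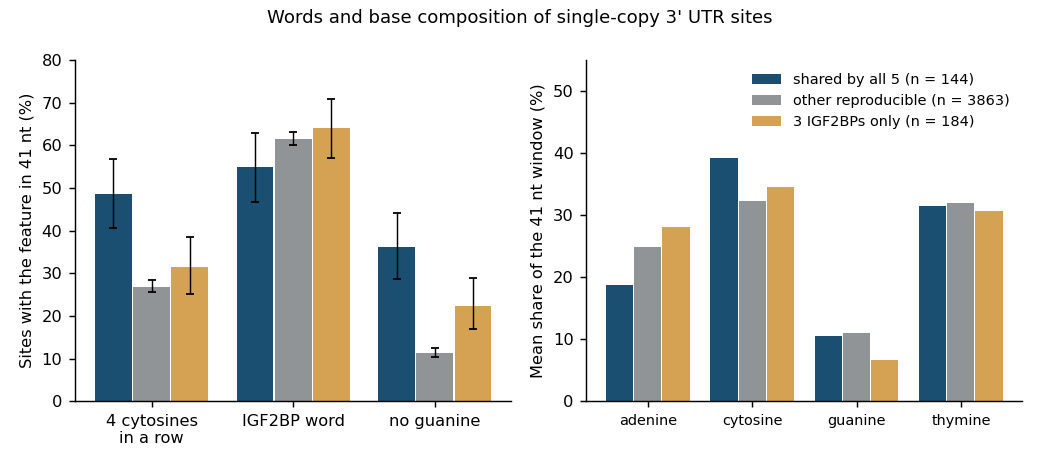
Left, share of 41 nt windows (percent) with 4 cytosines in a row, with one of the words CATA, CATC or CATT (labelled IGF2BP word) and without guanine; right, mean base composition (percent of the window), for 144 shared, 3863 other reproducible and 184 IGF2BP-only single-copy 3′ UTR sites. Lines are 95% Wilson intervals. The word of 4 cytosines was picked after its shares in these windows were seen. It was present in 48.6% of the shared windows against 26.9% and 31.5%.

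In the genes, the shared sites were spread thinly with 1 exception. An exonic site was present in 6043 protein-coding genes, and 239 of them (3.95%) held a shared one, 152 of them at single-copy sequence. Of the 239 genes, 207 held 1 shared exonic site, 23 held 2 and 9 held 3 or more. Genes with a shared site had a median of 6 merged exonic sites and other genes 2, so a gene with more sites also had more chances to hold a shared one.

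IGF2, a growth factor of fetal tissues and the namesake of the IGF2BPs, held 20 shared sites among its 36 exonic sites (55.6%), where 1.09% of all merged sites were shared. They lay at chr11:2129354-2139384 on the minus strand, 15 in the 3′ UTR, 4 in the 5′ UTR and 1 in coding sequence. All 20 had a single-copy core, and 11 had clusters in all 12 libraries. They were between 45 and 186 nt wide, and some abut, such as the 5′ UTR sites at chr11:2139079-2139224 and chr11:2139225-2139384, so the number counts merged intervals and not separate binding events. Another gene on the same strand, ENSG00000284779, overlaps 6 of the 3′ UTR sites. At the widest site, 186 nt in the 3′ UTR, the IGF2BP1 libraries covered 182 and 178 nt, the IGF2BP2 libraries 140 and 179, the IGF2BP3 libraries 156 and 182, the METTL1 libraries 182 and 179, the WDR4 libraries 182 and 139, and the bio2 libraries 133 and 159. The replicates of IGF2BP2 and of WDR4 differed there by more than the means of the 5 proteins did. At the site 832 nt from the stop codon the 12 libraries covered between 48 and 63 nt, with the 2 bio2 libraries lowest at 48 nt. Of the 15 stretches read from the cores in this 3′ UTR, 11 held G and 4 did not, and 5 held one of the words. A core with 2 of the words (chr11:2132141-2132170), a G-free one without them (chr11:2132465-2132494) and a G-rich one (chr11:2130735-2130764), all on the minus strand, show how they differ.

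IGF2, 832 nt from the stop codon: cccccaaatcttaCATCtcaattccCATCc

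IGF2, 508 nt from the stop codon: actccccacccccctctttctcttctccct

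IGF2, 2238 nt from the stop codon: cggggggagttctggggtaggaagtggtcc

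APOB, the structural protein of low-density lipoprotein, held 6 shared sites of 77, all in coding sequence and all with clusters in 12 libraries, between chr2:21002104 and chr2:21012255. In every one of the 6, the IGF2BP1 libraries covered more nt on average than the METTL1 and the WDR4 libraries. At chr2:21002104-21002151 the IGF2BP1 libraries covered 48 nt each, the IGF2BP2 libraries 33 and 48, the IGF2BP3 libraries 48 each, the bio2 libraries 43 and 48, and all 4 METTL1 and WDR4 libraries 28 nt. The writers therefore lay below all readers at this site. At chr2:21006745-21006786 all 4 METTL1 and WDR4 libraries covered 27 nt, which was also the value of 1 IGF2BP2 library, and the other 7 IGF2BP libraries covered 35 to 42 nt. The stretches common to all libraries at these sites, the latter with 3 of the words, read as follows.

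APOB, chr2:21002109-21002136, minus strand: cctctaactttacttcccaactctcaag

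APOB, chr2:21006751-21006777, minus strand: ctCATCtcctttcttCATCttCATCtg

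The other protein-coding genes with 3 or more shared sites that are named here held them all in the 3′ UTR. PLBD2, a lysosomal hydrolase-like protein, had 5 of 15. MDM2, a ubiquitin ligase, had 4 of 18. BCAM, a laminin receptor, had 3 of 11, DCAF8, a ubiquitin ligase receptor, 3 of 3, PGAM5, a mitochondrial phosphatase, 3 of 10 and USB1, which trims U6 snRNA, 3 of 6. Most of these were not single copy: of the 5 sites of PLBD2 and the 4 of MDM2, 1 each had a single-copy core, and none of the 3 in PGAM5 or in USB1 did.

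Among the listed gene groups, the shared sites fell on a few members each, and the share of all genes with a site to read them against is 3.95%. Of 17 oncofetal genes and let-7 targets, all with an exonic site, 5 held a shared one: IGF2BP1 itself with 2, HMGA2 and TRIM71 and PEG10 with 2 each, and AGO2 with 1. HMGA2 is a chromatin protein of the embryo, TRIM71 an RNA-binding ubiquitin ligase that let-7 represses, PEG10 a retrotransposon-derived imprinted gene and AGO2 the slicer of RNA interference. The 3′ UTR site of HMGA2 was 41 nt wide and covered whole in all 12 libraries, but its central 20 nt occur 29 times in the genome. The IGF2BP1 site at chr17:49050653-49050692 was covered over 28 to 40 nt in 10 libraries and had no cluster in the bio2 libraries. At the PEG10 3′ UTR site, 117 nt wide, the IGF2BP1 libraries covered 97 nt each and the METTL1 libraries 32 and 84, so the METTL1 replicates lay far apart.

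Of 30 lipid metabolism genes with a site, 5 held a shared one, among them the desaturases SCD, FADS1 and FADS2 and the lipoprotein receptor LRP1. At the FADS1 site, 972 nt from the stop codon, 8 libraries covered 53 nt and the METTL1 libraries 51 and 48, and the bio2 libraries had none. Of 25 secreted liver protein genes with a site, APOB, SERPINA1 (alpha-1 antitrypsin) and FGB (fibrinogen beta chain) held shared sites. FGB was covered over the same 40 nt in all 12 libraries, although its central 20 nt occur at 2 places. SERPINA1 had its site 24 nt from the stop codon covered over 26 to 71 nt, widest in the IGF2BP1 libraries with 71 and 67 nt and in METTL1 replicate 2 with 67.

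Of 14 genes of insulin-like growth factor signalling with a site, IGF2 alone held a shared one, and it was also the only one of 5 known IGF2BP targets with a site to do so; MYC, ACTB, BTRC and the H19 RNA had sites but no shared one. AGO2 was the 1 of 10 microRNA pathway genes. None of 20 RNA binding and decay genes and none of 15 cell cycle genes with a site held a shared one. With 3.95% of all protein-coding genes with a site holding a shared one, lists this small can easily hold none. Their lack of shared sites shows no depletion. Of 5 transcripts that the study tethered, BPNT2 and ZDHHC9 held 1 each. The BPNT2 site lay in the 3′ UTR, and the 12 libraries covered 38 to 53 nt of its 58 nt. The ZDHHC9 site was in coding sequence, and 11 libraries covered 46 to 55 nt of 55 nt while bio2 replicate 2 had no cluster.

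Small noncoding RNA genes were rare among the single-copy sites. A site in RPPH1, the RNA of ribonuclease P, had clusters in 12 libraries. There IGF2BP3 replicates 1 and 2 covered 20 nt each, and the other 10 libraries 39 to 48 nt of 48. RNU5E-1, a spliceosomal RNA gene, and a Y RNA gene held 1 site each, with multi-copy sequence, and 5.8S ribosomal RNA genes as GENCODE annotates them held 3 (the RefSeq spans held 2). No shared site had its core in a nuclear tRNA gene (0 of 477, which allows a share of up to 0.629% for 3 counts). Among the other sites 71 of 43393 did, a share below that limit, so the 0 shows no depletion.

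Clusters at shared sites were wider than other clusters in each of the 12 libraries. Median widths at shared sites were 54 and 56 nt in the IGF2BP1 libraries, 50 and 51 in IGF2BP2, 49 and 51 in IGF2BP3, 47 and 47 in the bio2 libraries, 50 and 50 in METTL1 and 50 and 49 in WDR4. The clusters elsewhere had medians of 34 to 41 nt, and the gap was 9 to 17 nt. A wide cluster meets an overlap rule more easily than a narrow one, so this gap carries no test. The merged sites themselves were 19 to 1175 nt wide with a median of 66 nt, and the single-copy ones 58 nt.

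The readers and the writers did not differ in this width beyond the spread of the libraries. The 8 IGF2BP libraries averaged 50.6 ± 3.16 nt (SD) and the 4 METTL1 and WDR4 libraries 49.8 ± 0.500 nt, a difference of 0.875 nt (two-sided exact permutation test, p = 0.669, n = 8 and 4). The test takes libraries of 1 protein as independent. Site by site, IGF2BP1 was most often the wider one. At 68.1% of the 477 sites the IGF2BP1 libraries covered more nt than the METTL1 libraries on average, and at 17.8% fewer, and against WDR4 the shares were 67.5% and 20.3%. IGF2BP2 stood above METTL1 at 44.2% and below it at 35.8%, and IGF2BP3 at 50.5% and 36.1%. At the 209 single-copy sites each of the 3 IGF2BPs was wider than each writer more often than narrower: against METTL1, IGF2BP1 was wider at 155 sites and narrower at 16, IGF2BP2 at 109 and 46, and IGF2BP3 at 112 and 60. Against WDR4 the numbers were 153 and 25 for IGF2BP1, 107 and 45 for IGF2BP2, and 116 and 56 for IGF2BP3. METTL1 was wider than WDR4 at 75 of these sites and narrower at 75. At the 20 IGF2 sites, all of them single copy, the order turned for IGF2BP3 but not for IGF2BP1 or IGF2BP2. There IGF2BP3 was wider than METTL1 at 5 and narrower at 14, and wider than WDR4 at 6 and narrower at 11. In all these site-by-site numbers IGF2BP3 was averaged over every library present, bio2 included. The order without the bio2 libraries was not computed. Sites of 1 library share their source, so these numbers carry no test. IGF2BP1 also had the most clusters in all, and how far its depth carries this order was not tested.

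**Figure D4:**
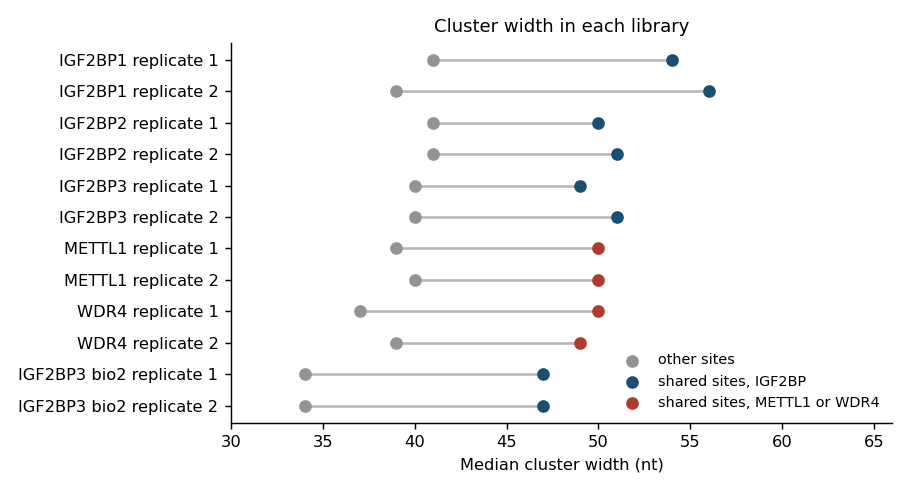
Median cluster width (horizontal axis, nt) in each library at shared sites (coloured points) and at other sites (grey points). In each of the 12 libraries the shared sites are wider, by 9 to 17 nt, and the METTL1 and WDR4 libraries (49 to 50 nt) lie within the range of the IGF2BP libraries (47 to 56 nt).

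Agreement of position was measured at each shared site as the Jaccard index, the nt covered by both libraries of a pair over the nt covered by either, and averaged over sites for each of the 66 pairs. Pairs of the same protein averaged 79.9% (10 pairs) and pairs of different proteins 79.3% (56 pairs), a difference of 0.533 percentage points (one-sided exact permutation test over the 12 libraries, p = 0.411). The 2 bio2 libraries decided this value. Their mean index was 87.1% with each other but 67.1% to 68.8% with the other IGF2BP3 libraries. Those other IGF2BP3 libraries had a higher index with METTL1 (82.2% to 83.8%) and with WDR4 (82.0% to 83.5%). Each pair was averaged over the sites that both libraries held, which were fewer for the bio2 libraries. At the 186 sites in all 12 libraries, IGF2BP3 pairs with different bio labels averaged 68.1%. There the IGF2BP3 libraries without the bio2 label averaged 78.1% with METTL1 and 78.1% with WDR4. Without the bio2 libraries, the 5 pairs of the same protein averaged 87.9% and the 40 pairs of different proteins 83.2%, a difference of 4.67 points (exact permutation test, p = 0.00106, the smallest that 945 arrangements allow).

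Between proteins, the pairs of IGF2BP2 with IGF2BP3 (86.3%, without bio2) and of METTL1 with WDR4 (85.5%, 85.1 to 86.0) stood highest. IGF2BP1 stood at 82.5% with IGF2BP2 and, without bio2, at 83.5% with IGF2BP3. Without bio2, pairs of an IGF2BP with METTL1 or WDR4 averaged 82.4% (79.7 to 85.3) and 2 different IGF2BPs 84.1% (81.6 to 86.7). The 2 ranges overlap. Over all pairs, bio2 included, the order turned, with 79.4% (68.5 to 85.3) and 77.9% (67.2 to 86.7). These are described without a test. The 5′ end of the cluster was the more constant one. Without bio2, it was identical in 69.1% of comparisons between 2 IGF2BPs, 66.9% between an IGF2BP and a writer and 72.8% between METTL1 and WDR4. For the 3′ end the shares were 54.7%, 48.6% and 54.9%. Over all pairs, bio2 included, the 5′ end was identical in 59.8% between 2 IGF2BPs and 63.3% between an IGF2BP and a writer. With a bio2 library, an IGF2BP pair had the same 5′ end in 45.9% and the same 3′ end in 38.3%. These shares are over sites with 1 cluster in each library present, and pairs with a bio2 library had fewer such sites.

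**Figure D5:**
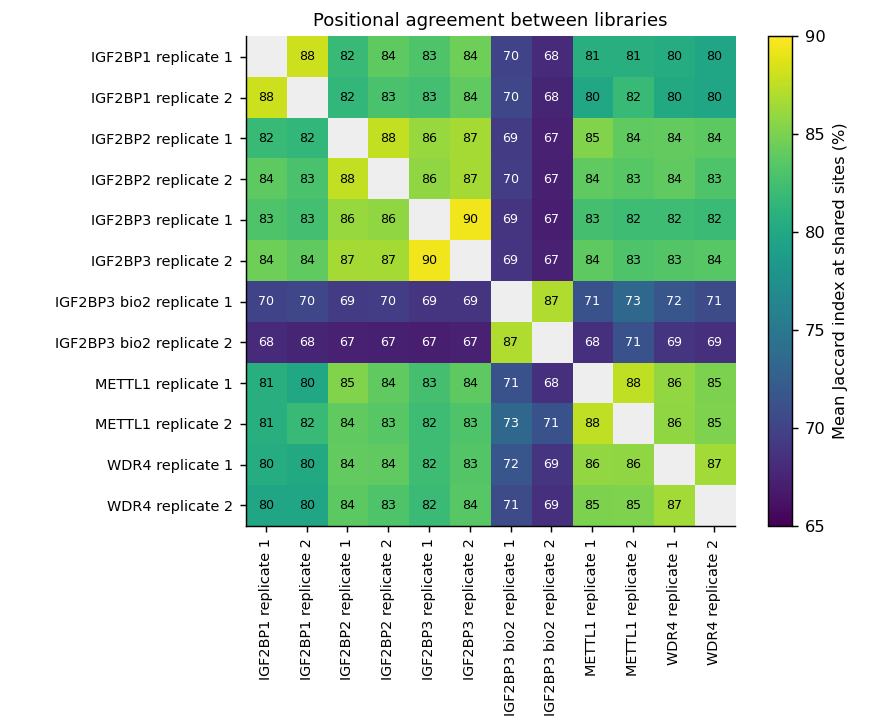
Mean Jaccard index at shared sites (colour and number, percent) for each pair of libraries. The 2 bio2 libraries form a dark cross, at 67.1% to 73.4% with every other library, and at 87.1% with each other.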

How the data were processed

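The authors filtered, clipped and collapsed reads with the FASTX toolkit, mapped reads longer than 15 nt with bowtie to hg38 (3 mismatches, up to 10 places) and called clusters with PARalyzer; versions and PARalyzer settings are not given in the sources used here. The deposited files, 1 per library, hold only each cluster's chromosome, start, end, name and strand, so the values used are positions. Of 102250 clusters, 6111 outside chromosomes 1 to 22, X and Y were left out. Starts were read as 1-based, since the base before the start is then G in most clusters.

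Clusters were merged as the report describes, and annotated at the core midpoint with GENCODE release 44 in the order coding sequence, 3′ UTR, 5′ UTR, other exon, intron. Ribosomal and tRNA gene spans were those of RefSeq, GRCh38. Copies of the central 20 nt were counted as exact matches on both strands. Libraries were grouped by their titles. Tests were exact permutations over libraries, checked on simulated data, in Python 3.11.15 with numpy 2.4.6; shares of sites carry Wilson intervals and no test. Named genes were those with at least 3 exonic shared sites, the 12 best-covered single-copy mRNA sites in 12 libraries, members of the gene lists, and small noncoding RNA genes; some that the rule names are not reported here. The members, lists and tests were chosen with earlier results of these data known, and the 3′ UTR difference per library, described without a test, was added after seeing the data.

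Same-numbered libraries of different groups did not deviate together (correlations of −0.0255 to 0.0160 over 15 pairs of groups), so the main tests used no pairing by number. With 2 libraries per group and no read counts, these correlations cannot tell whether libraries shared a culture.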

Additional observations from a re-analysis of the deposited data

Results flagged for a closer look

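Among the 4 METTL1 and WDR4 libraries, WDR4 replicate 2 stood apart in median cluster width at shared sites with 49 nt, against 50 nt in each of the other 3, a gap of 1 nt. It was the only library value to stand apart in this way in 12 groups of library values examined. The other 3 values were tied, so a gap of 1 nt was enough for it to stand apart. A chance rate of about 1 in 20 need not hold for tied values, and nothing is drawn from this flag.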

How the results depend on the processing

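The number of shared sites was 478 with a 10 nt overlap, 454 without the bio2 libraries, 464 where 1 nt had to be covered by 2 libraries of each protein and 362 without mitochondrial and ribosomal RNA sequence, but 186 where all 12 libraries were required, 209 with single-copy cores and 276 from clusters at or above their library's median width. Leaving out 1 IGF2BP3 library gave 245 to 467 sites, a 3′ UTR share of 40.0% to 52.2% and a CATA, CATC or CATT share of 45.4% to 48.2%; the low number, 245, came without replicate 1 or replicate 2, since 232 sites had no IGF2BP3 cluster but in those 2 libraries. The other proteins had 2 libraries each, and the rule cannot be met without one. The 3′ UTR share of 51.2% was 39.8% at sites in all 12 libraries, 68.9% at single-copy sites and 67.4% without mitochondrial and ribosomal RNA sequence, the last added after seeing the data. The CATA, CATC or CATT share was 51.1% at sites in all 12 libraries, 53.1% at single-copy sites, 25.6% in 21 nt and 61.2% in 81 nt.

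The width difference between readers and writers stayed above 0 nt, with a p above 0.05, under every alternative run, with 0.875 nt in the replicate block (permutation within replicate numbers, p = 0.689), 2.08 nt without the bio2 libraries, 1.58 nt with the 5 proteins as units, 6.29 nt for mean widths and 0.107 to 1.39 nt when 1 library was left out. The difference in positional agreement was 4.67 points without the bio2 libraries (exact permutation p = 0.00106) and 3.54 points in the replicate block (pairs with different replicate numbers, p = 0.168), and it ran from −0.440 to 3.38 points when 1 library was left out. It was below 0 without IGF2BP1 replicate 1 or 2, METTL1 replicate 1 or WDR4 replicate 2, and highest without IGF2BP3 replicate 2. The cause of these shifts was not tested. Read numbers are not in the files, so depth could not be weighed.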

Other observations

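Outside the rule for named genes, and chosen after their values were seen, shared sites lay in both RNA demethylases of m6A. The site in FTO (chr16:54112453-54112495, 3′ UTR, 561 nt from the stop codon) was covered over 29 to 43 nt in 10 libraries, and that in ALKBH5 (chr17:18209451-18209484, 3′ UTR, 1073 nt from the stop codon) over 27 to 34 nt in 10 libraries, neither with a bio2 cluster. PCBP2, a protein that binds C-rich RNA, held 2 shared sites of 8, 1 in the 5′ UTR with clusters in 12 libraries and 1 in coding sequence in 10. SELENOP, the selenium carrier of plasma, held a 3′ UTR site of 108 nt with clusters in 12 libraries, of which the 2 IGF2BP1 libraries covered 97 nt each and METTL1 replicate 1 covered 37 nt.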
